A study of Homo sapiens with 8 samples.

Results

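The p53 stress target genes considered here were TP53I3, PMAIP1, MDM2, SFN, GADD45A, PLK2, GDF15, BTG2 and SESN1, 9 genes that p53 is known to induce, among 8226 genes measured under their own symbol. A member was read from each probe set, a group of short oligonucleotide probes for a transcript, whose platform annotation gave exactly 1 symbol equal to the member's. This found 11 probe sets for 7 members, of 10943 probe sets with 1 symbol. MDM2 had 4, SFN had 2 and the other measured members had 1 each. BTG2 and SESN1 had 0 such probe sets and were not analysed here.

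Gene expression was measured on 8 Affymetrix U95Av2 arrays in 2 human prostate cancer cell lines. LNCaP derives from a lymph node metastasis, responds to androgens and carries wild-type p53, whereas PC3 derives from a bone metastasis, grows without androgens and makes no p53 protein. The 4 groups were LNCaP cells overexpressing activated Notch1, LNCaP cells with the green fluorescent protein (GFP) control, PC3 cells overexpressing activated Notch1 and PC3 cells with GFP, with 2 arrays each. Per the methods a pair of chips was made per sample, so the p-values measure only the spread between arrays, which may be technical. Precision is limited by having only 2 arrays per group. Values are log2 expression after robust multichip averaging (RMA), and differences between groups are also log2 values unless a fold is named.

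p53 is a transcription factor that accumulates after DNA damage and other stress and switches on genes for cell cycle arrest, DNA repair, antioxidant defence and cell death. One of its targets, MDM2, marks p53 for degradation and so closes a feedback loop. Several targets also answer to other factors, among them the p53 relatives p63 and p73 and, for PMAIP1 and GDF15, the ATF4 branch of the stress response. Activated Notch1 needs no ligand and signals through the DNA-binding protein CSL (RBPJ). In bulk RNA from a culture, fewer cells expressing a gene and less of its RNA per cell cannot be told apart.

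p53 recognises a 20-base site made of 2 copies of a decamer with a CATG-like core, called here by its name, the p53 consensus. The 250 bases before the transcription start were taken from RefSeq (GRCh38.p14) for 8 of the 9 members, 13 windows in all. Shown are the windows of the feedback gene MDM2 (its inner start) and of PMAIP1, with the 20-base stretch nearest to the consensus in capitals, of PLK2, with an exact decamer in capitals, and of TP53I3, the member that rose most in LNCaP, whose window held neither an exact decamer nor a stretch with at most 3 mismatches. All are written 5′ to 3′ along the gene.
MDM2, chr12:68808767-68809016, plus strand: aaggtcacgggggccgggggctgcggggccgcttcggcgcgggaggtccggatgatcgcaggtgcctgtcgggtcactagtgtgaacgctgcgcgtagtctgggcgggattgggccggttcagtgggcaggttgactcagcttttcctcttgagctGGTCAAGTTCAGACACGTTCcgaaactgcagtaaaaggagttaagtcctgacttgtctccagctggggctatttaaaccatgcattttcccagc
PMAIP1, chr18:59899746-59899995, plus strand: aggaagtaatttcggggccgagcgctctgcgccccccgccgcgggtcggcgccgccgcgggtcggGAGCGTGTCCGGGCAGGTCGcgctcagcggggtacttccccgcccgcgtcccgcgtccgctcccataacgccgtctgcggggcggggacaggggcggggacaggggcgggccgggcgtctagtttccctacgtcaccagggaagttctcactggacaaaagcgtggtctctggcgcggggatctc
PLK2, chr5:58460087-58460336, minus strand: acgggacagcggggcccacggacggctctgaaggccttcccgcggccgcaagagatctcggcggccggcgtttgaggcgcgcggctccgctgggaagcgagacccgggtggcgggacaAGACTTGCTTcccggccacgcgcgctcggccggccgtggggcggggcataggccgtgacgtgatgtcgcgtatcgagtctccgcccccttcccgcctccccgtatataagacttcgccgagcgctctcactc
TP53I3, chr2:24084835-24085084, minus strand: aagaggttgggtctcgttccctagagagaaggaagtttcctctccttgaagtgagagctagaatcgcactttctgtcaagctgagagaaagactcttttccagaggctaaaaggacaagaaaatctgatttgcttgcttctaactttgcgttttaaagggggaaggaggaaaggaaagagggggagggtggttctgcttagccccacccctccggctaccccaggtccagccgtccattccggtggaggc
The capitals in the MDM2 window mark a 20-base stretch with 2 mismatches to the p53 consensus, 94 bases before the start. Stretches with at most 2 mismatches occurred in 0.561% of 35116 promoter windows searched on both strands. In the PMAIP1 window the capitals mark a stretch with 3 mismatches, 185 bases before the start, and 4.36% of windows had one with at most 3. In PLK2 they mark an exact decamer 132 bases before the start, present in 5.57% of windows. A window of SESN1, not shown, also held an exact decamer, in a 20-base stretch with 3 mismatches, 49 bases before the start. The closest 20-base stretches in the PLK2 and TP53I3 windows had 5 mismatches each and are not marked. The CSL heptamer GTGGGAA was in 5.43% of all windows and in 0 of the 13 windows of members. These matches describe letters in short windows and say nothing of binding.

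The cultures were checked by marker genes. The 5 measured LNCaP identity genes had median levels of 8.31 in LNCaP Notch1, 9.27 in LNCaP GFP, 5.10 in PC3 Notch1 and 5.19 in PC3 GFP cells, and the 13 PC3 identity genes had 5.49, 4.73, 9.14 and 8.38 in the same order. Between GFP groups all 5 were called higher in LNCaP (40.3% of all probe sets were). Of the 13, 10 were called lower (18.5% of all) and 3 were not called. With activated Notch1 in LNCaP, 4 of the 5 were called lower (9.32% of all) and 2 of the 13 higher (8.01% of all). In PC3, 0 of the 5 were called (6.20% of all), and 5 of the 13 were called higher (4.19% of all) and 0 lower. HES1, the classic Notch target, was higher with activated Notch1 by 2.78 in LNCaP (adjusted p = 3.12e-07) and by 2.56 in PC3 (adjusted p = 4.22e-07). The summed level of 17 markers of blood, vessel, stromal and other cell types spanned 11.25 to 11.31 in LNCaP Notch1, 11.03 to 11.08 in LNCaP GFP, 10.74 to 10.82 in PC3 Notch1 and 10.88 to 10.95 in PC3 GFP arrays. Of these markers only ALB, the liver protein albumin, was called in LNCaP (a mean of 7.08 with Notch1 and 4.44 with GFP), a gene named after its values were seen. The part of these markers in the results was not tested. Between 31.9% and 33.0% of probe sets on an LNCaP array and between 36.6% and 37.6% on a PC3 array lay under log2 5, where a difference depends on array background.

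With activated Notch1, 5 of the 11 probe sets were higher and 2 were lower than with GFP in LNCaP cells, at an adjusted p under 0.05 by limma. TP53I3, SFN, GADD45A and 1 MDM2 probe set rose, and PMAIP1 and GDF15 fell. Over all 12558 tested probe sets 8.01% were called higher and 9.32% lower in that comparison, 17.3% in all. In PC3 cells 4 of the 11 were higher and 1 was lower, against a background of 4.19% and 2.01% (6.20% in all). There SFN at 1 probe set, GADD45A, PLK2 and PMAIP1 rose, and GDF15 fell. The 2 lines thus had in common called rises of SFN and GADD45A and a called fall of GDF15, while PMAIP1 moved in opposite directions. The response differed between lines at 6 of the 11 probe sets, 3 with a higher and 3 with a lower change in LNCaP, against 6.49% and 7.67% of all probe sets (14.2% in all). The median change over all probe sets was 0.04 in LNCaP and -0.08 in PC3.

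**Figure D1:**
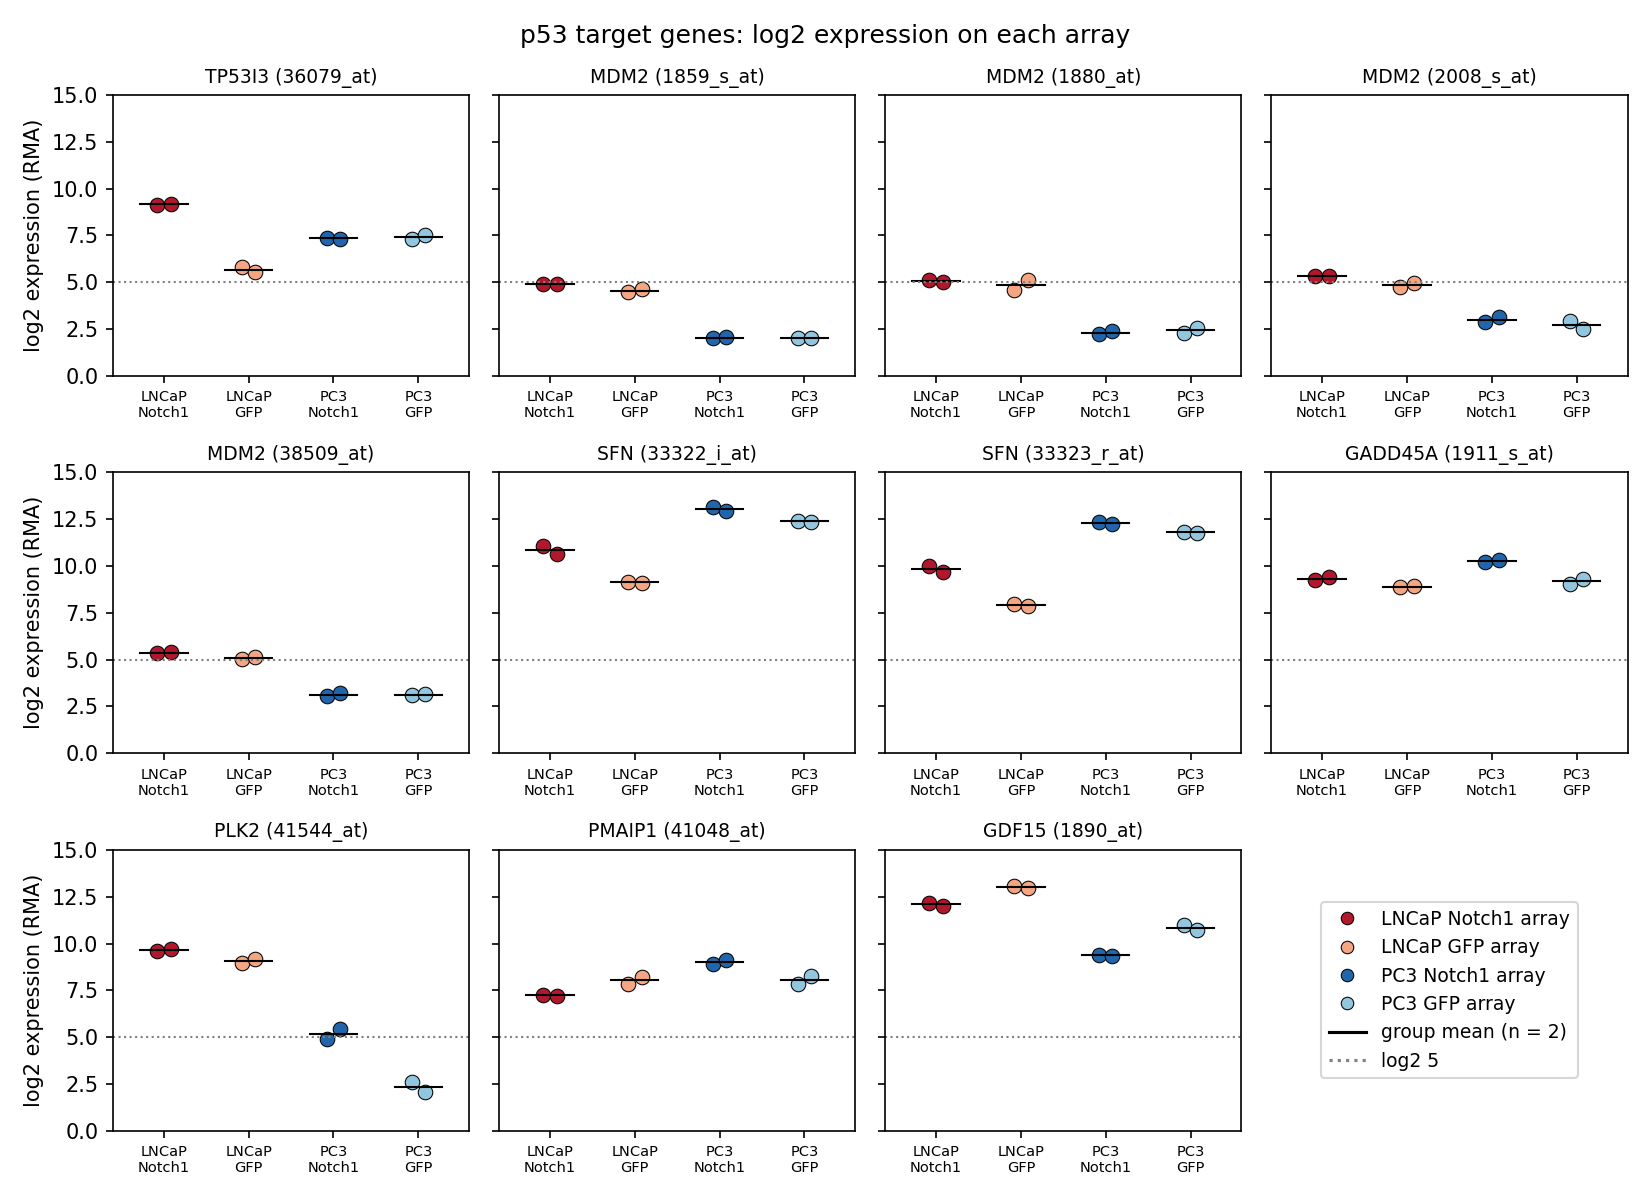
Log2 expression (y axis) of each of the 11 probe sets on each array, by group (x axis: LNCaP Notch1, LNCaP GFP, PC3 Notch1, PC3 GFP). Points are arrays, bars are group means (n = 2) and the dotted line is log2 5. TP53I3 stands near 9 only on the LNCaP Notch1 arrays, the 4 MDM2 probe sets lie near or under log2 5 throughout, and PLK2 is under 3 only on the PC3 GFP arrays.

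The gene whose response separated the lines most was TP53I3, a quinone oxidoreductase that generates reactive oxygen species and takes part in p53-dependent cell death. Its values were 9.11 and 9.18 on the LNCaP Notch1 arrays, against 5.78 and 5.55 on the LNCaP GFP arrays. In PC3 they were 7.37 and 7.32 with Notch1, against 7.33 and 7.52 with GFP. Both LNCaP Notch1 arrays lay above all 6 others, both LNCaP GFP arrays lay below all others, and the PC3 groups overlapped. The LNCaP rise was 11.2-fold (log2 3.48, SE 0.13, adjusted p = 1.34e-07), whereas PC3 gave -0.08 with a 95% interval of -0.36 to 0.21 (adjusted p = 0.734). The changes differed by 3.56 (SE 0.18, adjusted p = 3.67e-06), and by 3.44 to 3.68 when single arrays were left out. In PC3, leaving out 1 array gave values between -0.17 and 0.02. Without activated Notch1, TP53I3 was 3.38-fold lower in LNCaP than in PC3 (log2 -1.76, adjusted p = 5.76e-07), so it was the line without p53 protein that had the higher GFP level.

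PMAIP1 encodes NOXA, a BH3-only protein that promotes apoptosis by binding MCL1. It read 7.27 and 7.22 on the LNCaP Notch1 arrays, against 7.84 and 8.23 on the LNCaP GFP arrays. The PC3 Notch1 arrays gave 8.91 and 9.12, against 7.81 and 8.24 with GFP. Within each line the groups did not overlap, and the Notch1 arrays were the lowest of all in LNCaP and the highest of all in PC3. The change in LNCaP was -0.79 (SE 0.17, adjusted p = 0.0102) and the rise in PC3 was 0.99 (SE 0.17, adjusted p = 0.00821). The lines' responses differed by -1.78 (SE 0.25, adjusted p = 0.00118), and this difference passed the test whichever single array was left out (-1.99 to -1.57). Within lines the calls were less firm. In LNCaP the call was lost without LNCaP Notch1 replicate 1 (-0.82, adjusted p = 0.0595), LNCaP Notch1 replicate 2 (-0.76, adjusted p = 0.075) or LNCaP GFP replicate 2 (-0.59, adjusted p = 0.0822), and in PC3 without PC3 Notch1 replicate 2 (0.88, adjusted p = 0.0968). With values under log2 5 raised to log2 5, which left PMAIP1 as it was and changed the spread estimate, both calls were lost (adjusted p = 0.101 in LNCaP and 0.117 in PC3). With GFP the lines differed by 0.01 (95% interval -0.38 to 0.40), a value whose sign turned under median centring (-0.27) and quantile normalization (-0.15).

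MDM2, the ubiquitin ligase that degrades p53, was measured by 4 probe sets, all at low levels. On the LNCaP Notch1 arrays probe set 1859_s_at gave 4.92 and 4.92, 1880_at 5.12 and 4.99, 2008_s_at 5.34 and 5.33, and 38509_at 5.35 and 5.39. On the LNCaP GFP arrays the same probe sets gave 4.46 and 4.64, 4.56 and 5.11, 4.74 and 4.93, and 5.02 and 5.15. Thus 3 of the 4 had both Notch1 arrays above both GFP arrays, and 1880_at overlapped. The changes in LNCaP were 0.37 for 1859_s_at (SE 0.11, adjusted p = 0.0486), 0.22 for 1880_at (adjusted p = 0.489), 0.50 for 2008_s_at (adjusted p = 0.0558, 0.0495 with the replicate block, 0.0237 with the 4 LNCaP arrays alone and 0.0202 without either PC3 GFP array) and 0.29 for 38509_at (adjusted p = 0.128). The single call was close to the threshold, was made in only 2 of 8 fits that left out an array (those without a PC3 GFP array, adjusted p = 0.0458), and ended with the 4 LNCaP arrays alone (0.37, adjusted p = 0.0759), under median centring (0.31, adjusted p = 0.0906), under quantile normalization (0.30, adjusted p = 0.112) and with values under log2 5 raised to log2 5, where it became 0. In turn, that floor brought 2008_s_at (0.34, adjusted p = 1.59e-06) and 38509_at (0.29, adjusted p = 0.0266) past the threshold, in a fit whose spread estimate the floor also changed. Without LNCaP GFP replicate 1 the value of 1880_at was -0.06. A rise of MDM2 in LNCaP is therefore stated only for 1859_s_at with all arrays and the deposited scaling.

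In PC3 all 16 MDM2 values lay under log2 5. They were between 2.02 and 3.20 with Notch1 and between 2.02 and 3.14 with GFP, and both groups overlapped at every probe set. The changes were 0.01, -0.11, 0.27 and -0.01 in the order above, with adjusted p between 0.314 and 0.971, and the sign of the last turned under median centring (0.03) and quantile normalization (0.11). The response did not pass the test of a difference between lines at any MDM2 probe set (0.36, 0.33, 0.23 and 0.30, adjusted p between 0.153 and 0.491) with the values as deposited, and passed it at 2008_s_at with the log2 5 floor (0.34, adjusted p = 5.81e-06). With GFP, by contrast, MDM2 was 3.87-fold to 5.74-fold higher in LNCaP than in PC3 (log2 1.95 to 2.52, adjusted p between 1.39e-08 and 7.55e-07). Since the PC3 values lay under log2 5 and the LNCaP GFP values only between 4.46 and 5.15, these differences fell to between 0 and 0.08 with the log2 5 floor.

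SFN encodes 14-3-3 sigma, which holds cyclin B1 and CDK1 in the cytoplasm and so blocks entry into mitosis. Probe set 33322_i_at read 11.08 and 10.66 on the LNCaP Notch1 arrays, against 9.16 and 9.09 on the LNCaP GFP arrays. In PC3 it read 13.14 and 12.92 with Notch1, against 12.43 and 12.36 with GFP. In both lines the Notch1 arrays lay above the GFP arrays, and every PC3 array lay above every LNCaP array. The second probe set, 33323_r_at, had 10.02 and 9.67 in LNCaP Notch1 and 7.96 and 7.85 in LNCaP GFP cells, and 12.36 and 12.22 in PC3 Notch1 and 11.84 and 11.75 in PC3 GFP cells, with the same order of groups. The rise in LNCaP was 3.35-fold at the first probe set (log2 1.75, SE 0.15, adjusted p = 2.41e-05) and 3.83-fold at the second (log2 1.94, SE 0.14, adjusted p = 7.68e-06). In PC3 the changes were 0.64 (SE 0.15, adjusted p = 0.0351) and 0.50 (adjusted p = 0.0634, 0.02 with the replicate block and 0.0444 under median centring). The PC3 call was lost without PC3 Notch1 replicate 1 (0.53, adjusted p = 0.237), PC3 Notch1 replicate 2 (0.75, adjusted p = 0.0983), PC3 GFP replicate 1 (0.67, adjusted p = 0.101) or PC3 GFP replicate 2 (0.61, adjusted p = 0.0533). The larger response of LNCaP passed the test at both probe sets (1.11, adjusted p = 0.00724, and 1.44, adjusted p = 0.00112). With the log2 5 floor, which left these levels as they were and changed the spread estimate over all probe sets, the first probe set lost its call between lines (adjusted p = 0.0679) and in PC3 (adjusted p = 0.162). The GFP level was 9.64-fold and 14.8-fold lower in LNCaP than in PC3 (log2 -3.27 and -3.89).

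GADD45A, a stress sensor that binds PCNA and p21 and activates the p38 and JNK kinase pathways, had the smallest called change of the members in LNCaP apart from MDM2. The LNCaP Notch1 arrays gave 9.25 and 9.39, against 8.86 and 8.93 with GFP. The PC3 Notch1 arrays gave 10.21 and 10.32, against 9.06 and 9.29 with GFP. The groups did not overlap in either line, and the PC3 Notch1 arrays were the highest of all. The rise was 1.34-fold in LNCaP (log2 0.42, SE 0.13, adjusted p = 0.043) and 2.12-fold in PC3 (log2 1.09, SE 0.13, adjusted p = 0.000539). The PC3 call held without any 1 array (0.97 to 1.20), whereas the LNCaP call was made in 2 of 8 such fits, failed without each LNCaP array (0.35 to 0.49, adjusted p between 0.0844 and 0.218) and without either PC3 Notch1 array (0.42, adjusted p = 0.0674), and ended under median centring (0.36, adjusted p = 0.0832) and with the log2 5 floor (adjusted p = 0.0829). The smaller response of LNCaP (-0.66, SE 0.18, adjusted p = 0.0341) was called in only 1 of the 8 fits that left out an array, that without PC3 GFP replicate 2 (-0.78, adjusted p = 0.0153). The other 7 gave -0.74 to -0.55 with adjusted p between 0.0596 and 0.119, and the call was also lost under quantile normalization (-0.43, adjusted p = 0.155) and with the floor (adjusted p = 0.0751). With GFP the difference of -0.28 between LNCaP and PC3 missed the threshold (adjusted p = 0.0778) and passed it without PC3 GFP replicate 1 (-0.40, adjusted p = 0.035), with the replicate block (adjusted p = 0.0316), under median centring (-0.56, adjusted p = 0.00345) and under quantile normalization (-0.37, adjusted p = 0.0326).

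PLK2, a polo-like kinase of centriole duplication that p53 induces, showed the widest gap between the lines. It read 9.57 and 9.69 in LNCaP Notch1 cells, against 8.97 and 9.17 in LNCaP GFP cells. In PC3 Notch1 cells it read 4.89 and 5.44, against 2.59 and 2.07 in PC3 GFP cells. The groups were apart in both lines, and both LNCaP groups lay above both PC3 groups. The change in LNCaP was 0.56 (SE 0.20, adjusted p = 0.0889), which passed the threshold under quantile normalization (0.65, adjusted p = 0.0428) with the 4 LNCaP arrays alone (adjusted p = 0.0165) and without either PC3 GFP array (adjusted p = 0.0376). In PC3 the fitted rise was 7.13-fold (log2 2.83, SE 0.20, adjusted p = 1.44e-05), but both GFP values and 1 Notch1 value were under log2 5, and the rise was 0.22 with the floor (adjusted p = 0.677). The difference between the responses was -2.27 (SE 0.29, adjusted p = 0.000663) and turned to 0.34 with the floor (adjusted p = 0.488). With GFP, PLK2 was higher in LNCaP than in PC3 by 6.74 on the log2 scale, a size that rests on the background level of the PC3 arrays.

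CDKN1A, the p53 target that encodes the cell cycle inhibitor p21, is no member and was to be given whatever its test. It read 11.29 and 11.16 in LNCaP Notch1, against 11.09 and 11.17 in LNCaP GFP cells, and 8.28 and 8.00 in PC3 Notch1, against 6.45 and 6.36 in PC3 GFP cells. The LNCaP groups overlapped and the PC3 groups did not. As for PLK2, the GFP level was higher in LNCaP than in PC3 (log2 4.72) and the response was larger in PC3 (difference of -1.64, adjusted p = 0.000278), here at levels above log2 5.

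GDF15, a secreted cytokine of the TGF-beta superfamily that many forms of cell stress induce, was the member that fell in both lines. It read 12.19 and 12.01 on the LNCaP Notch1 arrays, against 13.07 and 12.99 on the LNCaP GFP arrays. In PC3 it read 9.38 and 9.35 with Notch1, against 10.96 and 10.72 with GFP. The Notch1 arrays lay below the GFP arrays in each line, and all LNCaP arrays lay above all PC3 arrays. The value was -0.93 in LNCaP (1.91-fold lower, SE 0.13, adjusted p = 0.000552) and -1.48 in PC3 (2.79-fold lower, SE 0.13, adjusted p = 6.17e-05), and both calls held without any 1 array (-1.02 to -0.84 in LNCaP, -1.60 to -1.36 in PC3). The responses differed by 0.55 (adjusted p = 0.0687), with adjusted p = 0.0288 under the replicate block, 0.67 with adjusted p = 0.0297 without PC3 GFP replicate 2, and 0.66 with adjusted p = 0.0287 under quantile normalization. With GFP, GDF15 was 4.55-fold higher in LNCaP than in PC3 (log2 2.18, adjusted p = 9.76e-08).

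**Figure D2:**
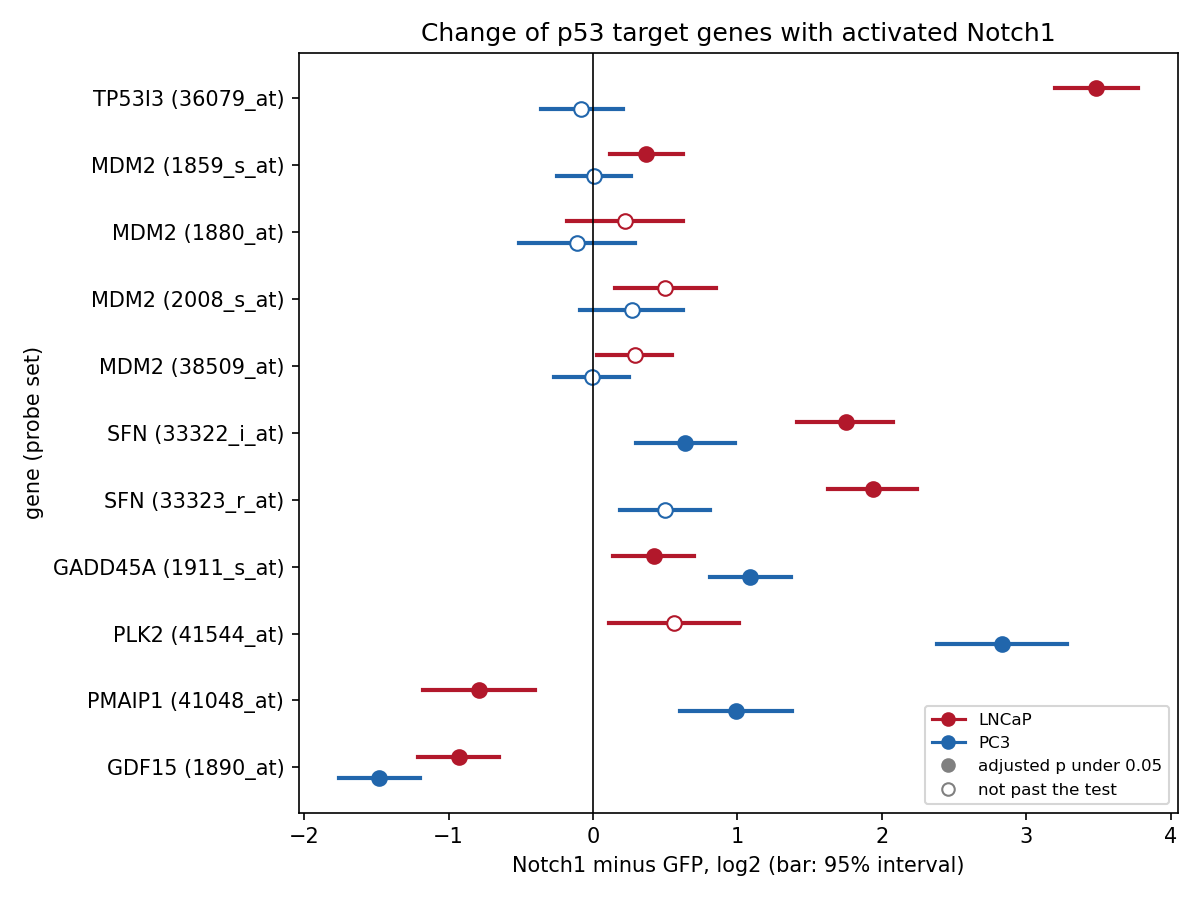
Notch1 minus GFP on the log2 scale (x axis) for each probe set (y axis), LNCaP in red above PC3 in blue. Bars are 95% intervals of the fit, and filled points passed an adjusted p under 0.05. TP53I3 stands at 3.48 in LNCaP and -0.08 in PC3, PMAIP1 at -0.79 and 0.99, and GDF15 lies below 0 in both lines.

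With GFP alone, 9 of the 11 probe sets differed between LNCaP and PC3, 6 higher and 3 lower in LNCaP, but 58.8% of all probe sets were called in that comparison (40.3% higher and 18.5% lower). MDM2, PLK2 and GDF15 were higher in LNCaP, TP53I3 and SFN were lower, and GADD45A and PMAIP1 missed the threshold. The median difference over all probe sets was 0.22 with the deposited scaling, and -0.06 after median centring and -0.04 after quantile normalization. The 9 called differences kept their direction and call under both scalings. Line and everything else that differs between the cultures, p53 included, cannot be told apart in this comparison.

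**Figure D3:**
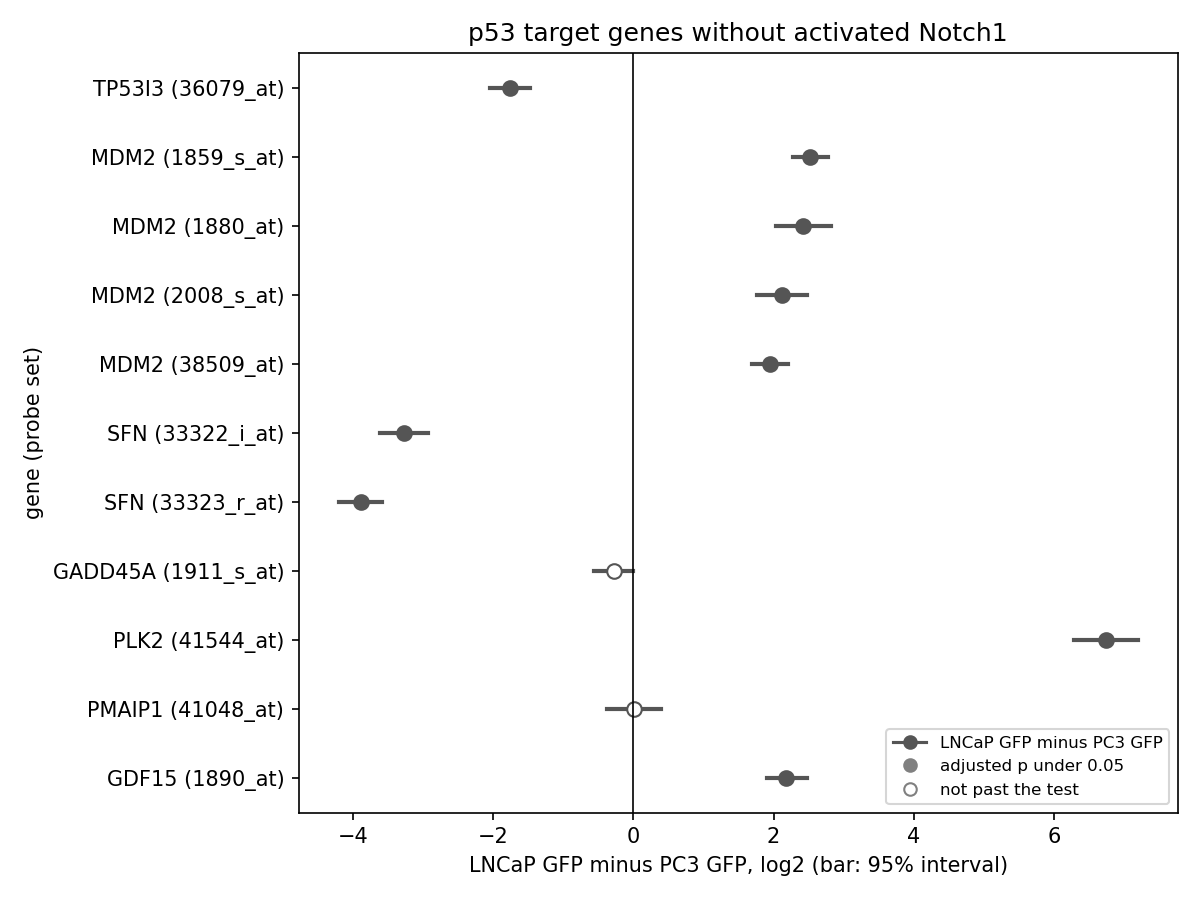
LNCaP GFP minus PC3 GFP on the log2 scale (x axis) for each probe set (y axis), with 95% intervals of the fit. Filled points passed an adjusted p under 0.05. Values run from -3.89 for an SFN probe set to 6.74 for PLK2, and those of GADD45A (-0.28) and PMAIP1 (0.01) did not pass.

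The wider p53 pathway was read from lists of other genes, with a gene of several probe sets read from the one highest on average. Their counts stand against 17.3% of all probe sets called in LNCaP and 6.20% in PC3, and a share near these is not a result about a list. Of 14 measured genes of arrest and feedback, 4 rose and 1 fell in LNCaP (median 0.19), and 4 rose and 1 fell in PC3 (median 0.07). In LNCaP GTSE1, a regulator of the G2 phase, rose by 1.31 and CCNE2, a cyclin of S phase entry, by 0.76 (in PC3 by 0.66, adjusted p = 0.0333), while the stress factor ATF3 fell by 0.78. Of 2 other GTSE1 probe sets 1 gave 1.15 and was called and 1 gave 0.24 and was not. In PC3 CDKN1A rose by 1.74, the antiproliferative gene BTG1 by 1.12 and ATF3 by 0.93. ATF3 thus moved in opposite directions, as PMAIP1 did, and its responses differed between lines by -1.71 (adjusted p = 0.000139). Both PC3 GFP values of ATF3 (4.37 and 4.43) were under log2 5, against 5.37 and 5.29 with Notch1. The sizes of its PC3 rise and of the difference between lines therefore depend on array background. KLF4, a zinc finger factor named after its values were seen, was called the other way round (0.56 in LNCaP, adjusted p = 0.0144, and -0.65 in PC3, adjusted p = 0.0179), with a difference of 1.21 (adjusted p = 0.00215).

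Of 16 apoptosis genes 3 rose in LNCaP (median 0.01) and 1 rose in PC3 (median 0.02), near the shares called over all probe sets (17.3% and 6.20%). The LNCaP rises were those of the decoy receptor TNFRSF10D (0.74), the pore-forming protein BAX (0.72) and caspase CASP6 (0.57). CASP6 was under log2 5 on both LNCaP GFP arrays (4.71 and 4.84). Among 4 other BAX probe sets, 1 was called at 0.61 and the others gave 0.56, 0.06 and -0.08. The gene that rose in PC3 was the early response gene IER3 (0.93). Of 9 genes of repair, redox defence and metabolism 5 rose in LNCaP, where the median was 0.45, against 0.04 over all probe sets. PCNA, the sliding clamp of DNA replication and repair, rose by 1.03, DDB2, which recognises ultraviolet damage, by 0.85, and the heme oxygenase HMOX1 by 0.79. In PC3 0 of the 9 were called by limma, with 1 higher and 2 lower at an unadjusted p under 0.05 and a median of -0.04, and 2 were called when a gene's probe sets were averaged. The difference between lines passed the test for DDB2 (1.12, adjusted p = 0.00189) and HMOX1 (1.44, adjusted p = 0.00314), and for PCNA it was 0.59 (adjusted p = 0.0625).

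Of 14 secreted and surface proteins 3 rose in LNCaP (median 0.06), where 17.3% of all probe sets were called, and 4 rose and 1 fell in PC3 (median 0.10), where 6.20% were. IGFBP3, a binding protein that limits insulin-like growth factors, rose in both lines, by 1.71 in LNCaP and by 2.80 in PC3, with the larger response in PC3 (difference of -1.10, adjusted p = 0.00928). SERPINB5, the tumor suppressor maspin, rose by 1.52 in LNCaP and had 0.24 in PC3 (adjusted p = 0.286), and these responses differed (1.29, adjusted p = 0.00168). The stem cell factor KITLG rose by 1.68 in LNCaP and by 0.74 in PC3 (adjusted p = 0.0429). Its second probe set gave -0.04 in LNCaP at a level far under log2 5. In PC3 the growth factor HBEGF rose by 1.16 and the Wnt inhibitor DKK1 fell by 0.83. Of 17 measured regulators of p53, 5 rose in LNCaP (median 0.35). They were led by the checkpoint kinases CHEK1 (0.90) and CHEK2 (0.88) and by CDKN2A (0.58), whose locus encodes the MDM2 inhibitor ARF. CHEK1 lay under log2 5 on every array (3.15 to 4.61), so its change depends on array background. The p53 relatives p63 and p73 were not among the 17 and were not read here. In PC3 1 of the 17 rose, the p53 and MDM2 partner DAXX (0.72), which also rose in LNCaP (0.57, adjusted p = 0.00715).

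Genes that p53 lowers through p21 and the DREAM complex, most of them cell cycle genes, formed a further list. Of 22 measured, 21 rose in LNCaP with a median of 1.53, and 1 rose in PC3 with a median of -0.09. By the test between lines the change was higher in LNCaP for 18 of the 22, against 6.49% of all probe sets. With GFP, 20 of the 22 were called lower in LNCaP than in PC3 (median -1.50). Over all probe sets 18.5% were, with a median of 0.22. GTSE1, CCNE2, PCNA and CHEK1, counted above among targets and regulators, are themselves genes of the cell cycle, and CHEK1 stood in both lists. Whether the cell cycle change had a part in the target genes' values was not tested.

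Genes of ATF4 and endoplasmic reticulum stress are given because ATF4 also induces PMAIP1 and GDF15. Of 16 measured, 8 fell in LNCaP (median -0.46) and 5 rose in PC3 (median 0.35). By the test between lines the response was lower in LNCaP for 10 of the 16, against 7.67% of all probe sets. ATF3 and CEBPB, both on this list, fell in LNCaP and rose in PC3, ATF3 from PC3 GFP values under log2 5. CEBPB also had the third closest profile to PMAIP1, but that search picks genes by their likeness to PMAIP1. The closer profiles, RAB5A and CIB1, were not among the 16. PMAIP1 moved in the direction of this list's median in both lines, whereas GDF15 fell in PC3 while the median was above 0. The part of the ATF4 genes in these values was not tested.

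**Figure D4:**
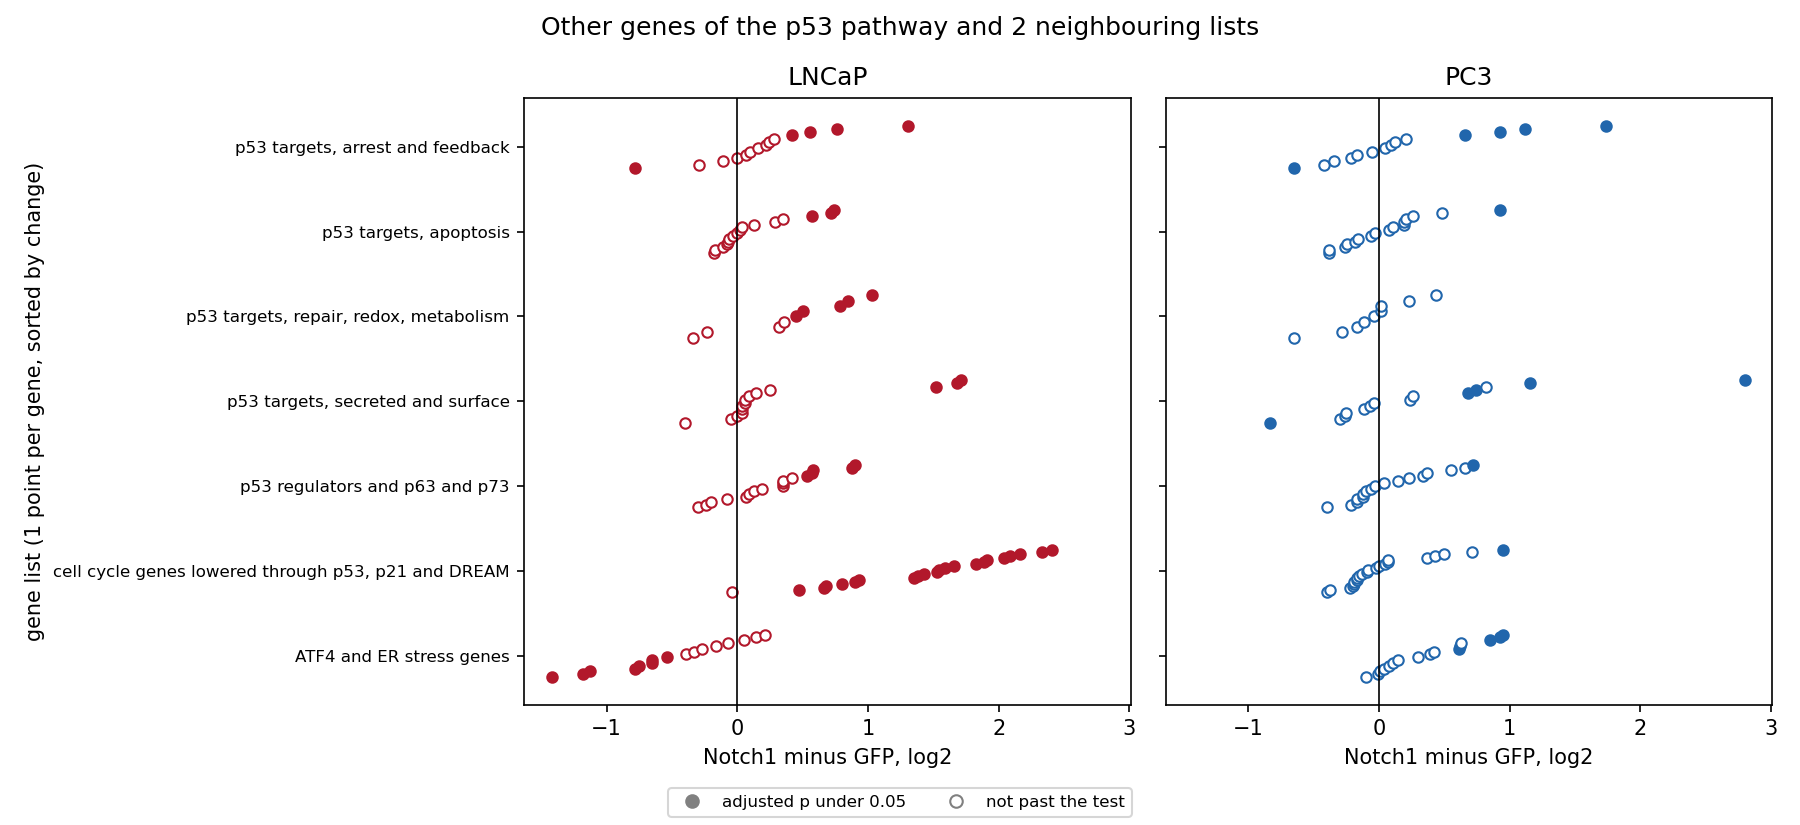
Notch1 minus GFP on the log2 scale (x axis) for every measured gene of 7 lists (y axis), LNCaP at left and PC3 at right. Each point is 1 gene, and filled points passed an adjusted p under 0.05. The 22 cell cycle genes have a median of 1.53 in LNCaP and -0.09 in PC3, and the 16 ATF4 and ER stress genes have -0.46 and 0.35.

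For each member the probe sets of other genes with the closest pattern over the 4 group means were found by Euclidean distance between profiles centred on their own mean, as a description over 4 points. TP53I3 lay closest to IL13RA1, a receptor of interleukin 13 (distance 0.569), then to S100P (0.995) and STIL (1.01). Those genes had PC3 changes of 0.60, -0.27 and 0.60, and LNCaP changes of 3.17, 2.09 and 2.26. PMAIP1 lay closest to RAB5A, an endosome GTPase (0.165), CIB1 (0.287) and CEBPB (0.306). GADD45A lay closest to SMAD3, a mediator of TGF-beta signals (0.0796), then to SOCS2 (0.238) and MAP1B (0.241). All of these had a larger change in PC3 than in LNCaP, which follows from picking them by likeness to GADD45A. For SFN the closest were RECQL (0.245), CKS1B (0.312) and QSOX1 (0.315), and for MDM2 they were 1 of the EP300 probe sets (0.0282), MATCAP2 (0.0731) and NR1H3 (0.101). GDF15 was nearest to COBL (0.659), MYO6 (0.70) and ZBTB16 (0.733). PLK2 had no close profile, with MAOA at 1.89, CDKN1A at 1.90 and CSPG5 at 1.97.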

How the data were processed

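Cell line RNA was hybridised to 8 Affymetrix U95Av2 arrays. Per the methods, the authors summarised the raw files with RMA and used limma, with versions, joint or separate normalization of the lines, and the vector that carried Notch1 or GFP not given in the sources used here. Each array's log2 value per probe set was used as deposited, with 0 columns of other samples.

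Of 12625 probe sets 67 controls were left out. limma 3.58.1 (R 4.3.3) fitted 4 group means to all 8 arrays (4 residual and 6.37 prior degrees of freedom). Tests were two-sided, with Benjamini-Hochberg adjustment over 12558 probe sets. The fit was tested on simulated data. Array medians were 6.28 to 6.36 in LNCaP and 5.95 to 6.01 in PC3, and arrays of a group correlated at 0.9946 to 0.9975 across probe sets. How far replicate 1 lay from its group mean was correlated between groups (r of 0.124 to 0.545 over the 6 pairs), so the replicate number from the titles was treated as pairing and tried as a block.

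Named were all members, CDKN1A, HES1, up to 3 called genes of each p53 list and line by size of change, and the 3 closest profiles. Genes of the other lists were named after their values were seen. Alternatives were median centring, quantile normalization, a log2 5 floor, the 25th percentile of mean level as a filter, the replicate block, only the arrays compared, and leaving out each array. The mismatch search of promoters was chosen after seeing the data. The members and lists were chosen with earlier results of these data known.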

Additional observations from a re-analysis of the deposited data

Results flagged for a closer look

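The response to activated Notch1 differed between LNCaP and PC3 by the test of the difference itself at 6 of the 11 probe sets, and these are the results to look at again. TP53I3 had the largest difference (3.56, adjusted p = 3.67e-06), with 3.48 in LNCaP and -0.08 in PC3. SFN responded more in LNCaP at both probe sets, by 1.11 (adjusted p = 0.00724, and 0.0679 with the log2 5 floor) and 1.44 (adjusted p = 0.00112). PMAIP1 fell in LNCaP and rose in PC3, with a difference of -1.78 (adjusted p = 0.00118). PLK2 responded less in LNCaP by -2.27 (adjusted p = 0.000663), a value that rests on PC3 GFP arrays near background. For GADD45A the difference of -0.66 (adjusted p = 0.0341) was lost without most single arrays and under quantile normalization.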

How the results depend on the processing

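With 2 arrays a group, some calls near the threshold were lost when single arrays were left out, at times arrays of the other line. Values under log2 5 depended on background. Of the comparisons of member values under the alternatives, 513 changed neither sign nor side of the threshold, values of exactly 0 counted among them, 44 lost a call, 20 gained one and 12 changed sign. The count of called probe sets in LNCaP was 7, and 4 to 9 without single arrays (4 without LNCaP Notch1 replicate 1 or 2 or LNCaP GFP replicate 2). In PC3 it was 5, and 3 to 5 without single arrays (3 without PC3 Notch1 replicate 2) and 2 with the log2 5 floor. Between GFP groups it was 9, and 5 both with the floor and with the filter at the 25th percentile of level. That filter left all MDM2 probe sets out. The share called over all probe sets moved too. With the floor it went from 6.20% to 2.76% in PC3 and from 58.8% to 38.3% between GFP groups. With the filter it was 60.5% between GFP groups. It was also lower in the fits with counts of 4 in LNCaP and 3 in PC3, and higher in those with 9. Without PC3 GFP replicate 2 it rose in PC3 while the member count fell. A lower count is therefore not by itself particular to the members. The PC3 call of 1 regulator became 2 under quantile normalization and 2 with the mean over a gene's probe sets, which also gave 2 in place of 0 for repair, redox and metabolism. Sign changes were seen for MDM2 38509_at in PC3 (0.03 centred, 0.11 quantile normalized, -0.09 to 0.08 without single arrays), PLK2 between lines (0.34 with the floor) and PMAIP1 between GFP groups (-0.27 centred, -0.15 quantile normalized, -0.21 to 0.22 without single arrays). Without single arrays the ranges were -0.06 to 0.50 for MDM2 1880_at in LNCaP and, in PC3, -0.17 to 0.02 for TP53I3, -0.01 to 0.02 for MDM2 1859_s_at and -0.26 to 0.03 for 1880_at. The floor's own construction gives the PLK2 and MDM2 losses, and the cause of the others was not tested. The replicate block brought MDM2 2008_s_at in LNCaP (adjusted p = 0.0495), SFN 33323_r_at in PC3 (0.02), GDF15 between lines (0.0288) and GADD45A between GFP groups (0.0316) past the threshold and changed no other member call. The block also raised the share called over all probe sets, from 17.3% to 22.9% in LNCaP and from 6.20% to 12% in PC3. Between lines it went from 14.2% to 22.9%, and between GFP groups from 58.8% to 64%. The gained calls are therefore not by themselves particular to the members.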
